A study of Mus musculus with 8 samples.

Results

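The transcriptome of mouse hepatic stellate cells after bile duct ligation (BDL) was described from 4 libraries, the 2 titled as stellate cells 5 days after BDL and the 2 titled as uninjured stellate cells, out of 8 libraries in the series. The stellate BDL libraries (n = 2) and the stellate uninjured libraries (n = 2) came from livers of mice 8 weeks old, of the strain given as Mixed (C57BL/6, SWR/J) and of the genotype Gli1:CreER+/-; Ai9+/-. The other 4 libraries, 2 after BDL and 2 uninjured, are Gli1+ cells of mice of the same age, strain and genotype, and they entered the fit to share its estimate of spread. Every mouse thus carried a tamoxifen-inducible Cre driven by Gli1 and a Cre-dependent fluorescent reporter, including the animals that gave the stellate cells. Liver tissue was broken down with enzymes, its cells were enriched by density gradient and sorted into lysis buffer, and SMART-Seq2, which amplifies full-length cDNA from small inputs, gave the libraries. The gate that selected stellate cells is not given in the sources used here, no sham-operated group is among the samples, and nothing in the labels states that replicates come from separate animals. The p-values therefore reflect library-to-library spread, which may be technical.

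Stellate cells are the pericytes of the liver sinusoid. In the healthy liver they store vitamin A as retinyl esters, made by the enzyme Lrat, and they secrete hepatocyte growth factor and other signals to their neighbours. When bile flow is blocked, cholestatic injury begins around the bile ducts, and stellate cells and portal fibroblasts are the main known sources of myofibroblasts, contractile cells that make alpha smooth muscle actin (Acta2), collagen I and the metalloproteinase inhibitor Timp1.

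Markers of the labelled cell type were present at high levels. Lrat stood at 2161 and 1907 CPM (read counts scaled to the same total in each library) in BDL libraries, against 1832 and 2784 CPM in uninjured libraries. The glycoprotein reelin (Reln), another stellate cell marker, stood at 3774 and 3788 CPM in BDL libraries, against 3527 and 3572 CPM in uninjured libraries. All 28 genes of the stellate cell identity list had reads in each of the 4 libraries. Gli1 itself had 1 read in BDL replicate 1 and no read in BDL replicate 2 or in either uninjured library, which allows up to 0.255 CPM in BDL replicate 2, and up to 0.183 and 0.156 CPM in uninjured replicates 1 and 2 (3 reads each, counting error only).

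The libraries held 17129100 and 11771666 reads on genes after BDL, against 16351324 and 19180370 reads in uninjured cells. At least 1 read was found for 19844 and 18919 genes in BDL libraries, against 16249 and 15963 genes in uninjured libraries, so more genes were detected after BDL without a greater depth. Mitochondrial transcripts took 1.72% and 2.73% of reads in BDL libraries, against 1.40% and 0.808% in uninjured libraries.

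The 2 uninjured libraries differed from each other more than the 2 BDL libraries did, which bears on every comparison that follows. Among the 16446 genes that reached 1 CPM in 2 or more of the 8 libraries, 819 (4.98%) differed by more than 4-fold between the BDL replicates, on log2(CPM + 1), against 2730 (16.6%) between the uninjured replicates. Uninjured replicate 1 carried transcripts of macrophages: Clec4f, a lectin of Kupffer cells, stood at 153 and 12.1 CPM in BDL libraries, against 2185 and 4.48 CPM in uninjured libraries. The complement gene C1qa stood at 236 and 109 CPM in BDL libraries, against 1652 and 7.98 CPM in uninjured libraries. The antigen presentation gene Cd74 stood at 324 and 91.7 CPM in BDL libraries, against 2895 and 32.1 CPM in uninjured libraries, and the lysozyme gene Lyz2 at 724 and 658 CPM in BDL libraries, against 1683 and 11.0 CPM in uninjured libraries. Summed over the 20 macrophage and Kupffer cell markers, the level was 2786 and 1795 CPM in BDL libraries, against 17725 and 119 CPM in uninjured libraries. With Clec4f, Adgre1, C1qc and C1qa, the genes of largest ratio towards uninjured replicate 1 were Rgs1, Cybb, Wfdc17, Spi1, Cd300ld and Clec12a. In the summed level both BDL libraries therefore lay between the uninjured ones. All 20 of 20 markers overlapped between the groups. Of all tested genes, 27.4% had both BDL libraries above both uninjured ones and 12.2% had both below.

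Uninjured replicate 1 also stood apart in its sex-linked transcripts. Xist, the RNA that coats the inactive X chromosome of female cells, stood at 0.0584 and 0.0849 CPM in BDL libraries, against 164 and 0.104 CPM in uninjured libraries. The Y-linked gene Ddx3y stood at 118 and 155 CPM in BDL libraries, against 0.0612 and 197 CPM in uninjured libraries. The Y-linked Eif2s3y stood at 67.8 and 82.1 CPM in BDL libraries, against 0.183 and 56.8 CPM in uninjured libraries. Uninjured replicate 1 is thus the only one of the 8 libraries with high Xist and next to no Y-linked reads, and the labels give no sex. Uninjured replicate 2 stood apart in other genes. With Ddx3y, Eif2s3y and Ccn1, the genes of largest ratio towards uninjured replicate 2 were Zfp146, Fbxo21, Atp1b2, Csdc2, Ptk7, Gm37949 and Vps18. Ccn1, an immediate early matricellular gene, stood at 441 and 492 CPM in BDL libraries, against 24.6 and 1527 CPM in uninjured libraries. The heat shock gene Hspa1a, not among these and chosen after its values were seen, stood at 2.45 and 6.54 CPM in BDL libraries, against 6.30 and 236 CPM in uninjured libraries. Summed over the immediate early and heat shock list, the level was 8415 and 4582 CPM in BDL libraries, against 4782 and 5032 CPM in uninjured libraries.

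**Figure D1:**
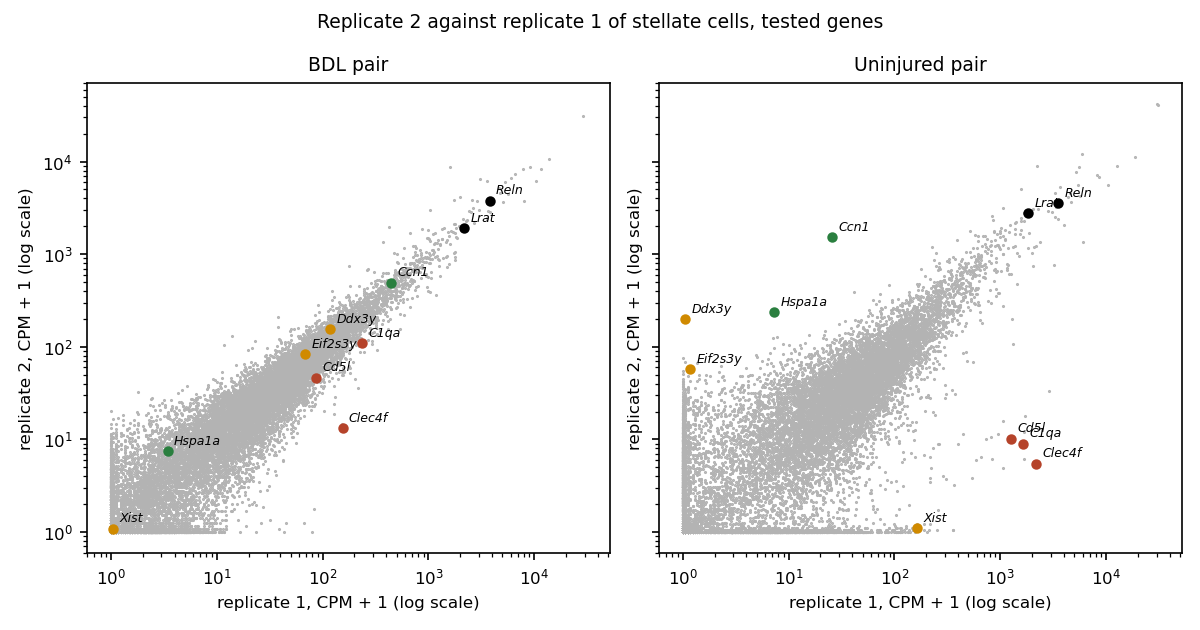
Replicate 2 against replicate 1 of the BDL pair (left) and the uninjured pair (right), in CPM + 1 on log axes, with 1 grey point for each of the 16446 tested genes. Macrophage genes (red) and Xist sit far to the right and below in the uninjured panel, Y-linked genes (orange), Ccn1 and Hspa1a (green) sit far above, and Lrat and Reln (black) lie close to equal levels in both pairs.

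After BDL 37 genes rose in stellate cells and none fell at the threshold used. Each gene was tested with limma on log2(CPM + 1), with a Benjamini-Hochberg adjusted p under 0.05 over all 16446 genes. The 37 higher genes are 0.225% of those tested and the 0 lower genes are 0.0%. Before adjustment, 1968 genes had p under 0.05, 1587 of them higher and 381 lower after BDL. The median log2 fold change of all tested genes was 0.19, so values for gene lists are read beside it. The 37 genes changed by 2.46 to 7.57 on the log2 scale, all 37 had both BDL libraries above both uninjured ones, and their mean level ran from 9.87 to 698 CPM after BDL, against 0 to 34.7 CPM in uninjured cells. In the uninjured libraries, which had fewer detected genes, 2 of the 37 had no read, 9 had 1 to 3 reads, and 22 had a mean under 1 CPM. Of the 37, 13 belong to the gene lists described here. Without uninjured replicate 1, 206 genes were called higher and 8 lower, and without uninjured replicate 2, 158 higher and 31 lower, with all 37 among the calls each time. Without BDL replicate 1 only 3 genes were called, 2 of them among the 37, and without BDL replicate 2 none was. No gene was called either with limma-voom on the reads, when the fit held the 4 stellate libraries alone, or without either of the 2 Gli1+ BDL libraries, with 1781 to 2098 genes at an unadjusted p under 0.05 in these fits.

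**Figure D2:**
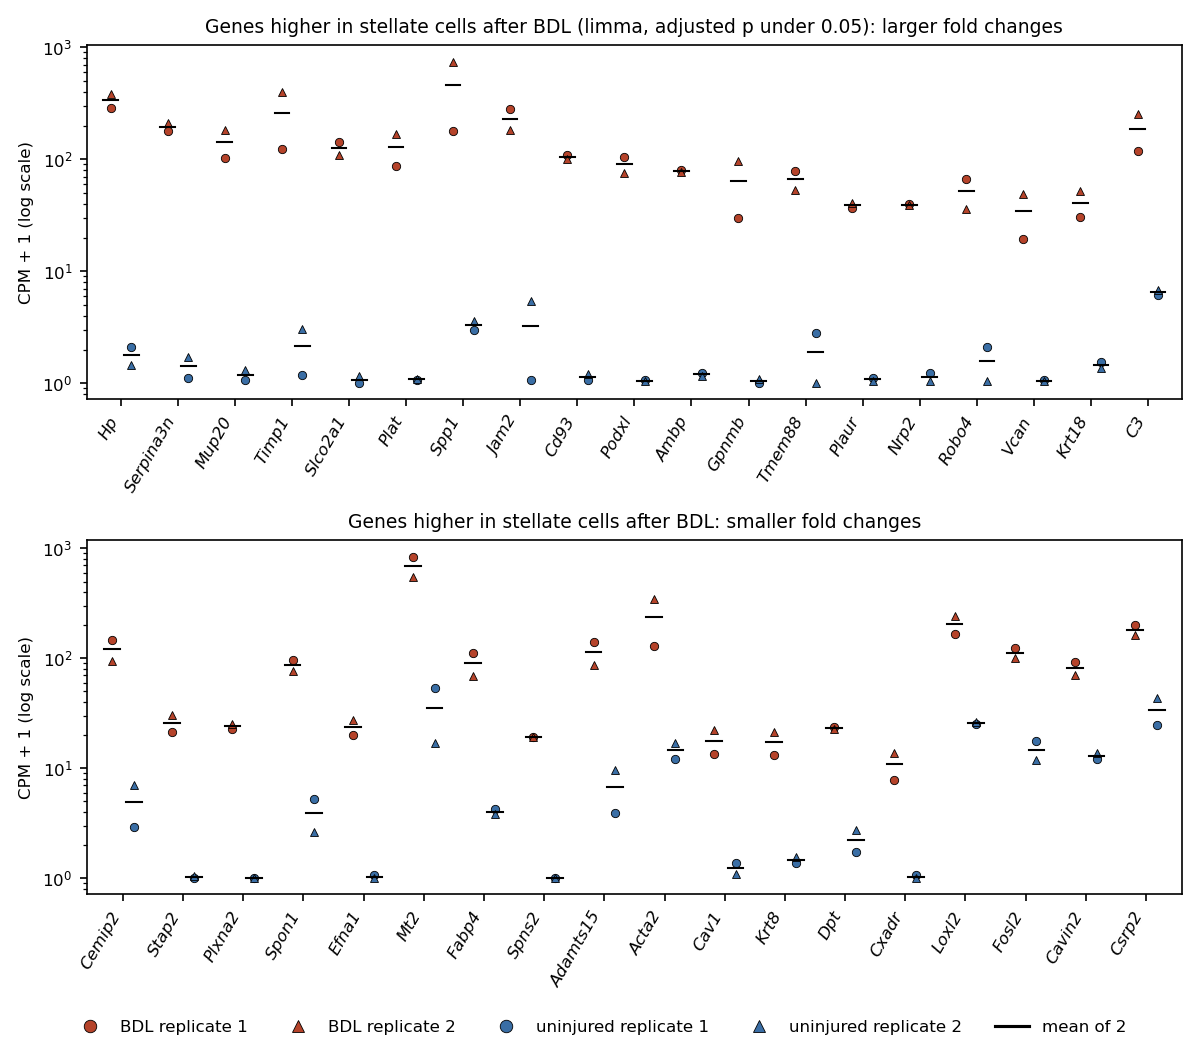
CPM + 1 on a log axis for the 37 genes called higher after BDL, ordered by fold change, with BDL libraries in red to the left of uninjured libraries in blue, circles for replicate 1, triangles for replicate 2 and a bar for the mean of 2. For all 37 genes both BDL libraries lie above both uninjured libraries, and most uninjured values lie close to 0 CPM.

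Activation genes were among those that rose. Acta2, smooth muscle actin and the usual marker of a myofibroblast (GRCm38 chr19:34241090-34255590), stood at 128 and 348 CPM in BDL libraries, against 11.1 and 16.1 CPM in uninjured libraries. It rose by 3.88 on the log2(CPM + 1) scale (SE 0.48, adjusted p = 0.0252). Timp1, which blocks matrix metalloproteinases (chrX:20870166-20874735), stood at 122 and 397 CPM in BDL libraries, against 0.183 and 2.09 CPM in uninjured libraries, and rose by 6.86 (SE 0.82, adjusted p = 0.0236). The collagen crosslinking oxidase Loxl2 (chr14:69609068-69695834) stood at 166 and 244 CPM in BDL libraries, against 24.4 and 25.1 CPM in uninjured libraries, and rose by 2.97 (SE 0.36, adjusted p = 0.0236). In all 3 genes BDL replicate 2 was the higher library of its pair, while the groups did not overlap. Spp1, the secreted phosphoprotein osteopontin (chr5:104435118-104441050), stood at 177 and 743 CPM in BDL libraries, against 2.02 and 2.61 CPM in uninjured libraries, and rose by 6.79 (SE 0.95, adjusted p = 0.0406).

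These 4 were the called members of the 30 activation and myofibroblast genes. In 17 of the 30 both BDL libraries lay above both uninjured ones, against 27.4% of all tested genes, and in 2 both lay below, against 12.2% of all tested genes. The median log2 fold change of the 30 was 1.42, beside 0.19 for all genes. Over the 19 alternative fits the median of the 30 ran from 1.06 to 1.91, and that of all genes from 0.02 to 0.27. Such a range follows each list median below in brackets, and percentages beside counts of a list are to be read against the 27.4% and 12.2% of all genes. Members that missed the threshold included the crosslinking oxidase Lox, at 38.6 and 86.6 CPM in BDL libraries, against 0.183 and 6.31 CPM in uninjured libraries (log2 fold change 4.32, adjusted p = 0.0932). The intermediate filament gene Vim stood at 711 and 1231 CPM in BDL libraries, against 385 and 243 CPM in uninjured libraries (1.61, adjusted p = 0.148). Not every activation gene moved this way: Tagln, an actin-binding smooth muscle gene, stood at 122 and 320 CPM in BDL libraries, against 71.6 and 245 CPM in uninjured libraries, with overlap between the groups (0.57, adjusted p = 0.788). Postn, a matricellular protein of many fibroblasts, stood at 614 and 617 CPM in BDL libraries, against 872 and 675 CPM in uninjured libraries (-0.32, adjusted p = 0.953).

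Acta2 was the called gene among the 27 tested contractile and cytoskeletal genes, of which 15 had both BDL libraries above and 3 both below (55.6% and 11.1%; median 0.51, 0.36 to 0.82). The tropomyosin gene Tpm1, whose product lies along actin filaments, stood at 710 and 680 CPM in BDL libraries, against 171 and 481 CPM in uninjured libraries (1.27, adjusted p = 0.315). The actin crosslinker Actn4, of the highest mean CPM over the 4 libraries, stood at 903 and 826 CPM in BDL libraries, against 1662 and 2764 CPM in uninjured libraries (-1.31, adjusted p = 0.175), and the actin-binding gene Cald1 at 969.5 and 1487 CPM in BDL libraries, against 584 and 856 CPM in uninjured libraries (0.76, adjusted p = 0.443). Outside the lists, Csrp2, a LIM-domain protein found in stellate cells and smooth muscle, rose by 2.46 (SE 0.36, adjusted p = 0.0450), with 199.9 and 161 CPM in BDL libraries, against 23.6 and 42.5 CPM in uninjured libraries. Calponin (Cnn1), a marker of mature vascular smooth muscle, stood at 0.292 and 1.19 CPM in BDL libraries, against 0.428 and 0.313 CPM in uninjured libraries, and the 14 smooth muscle markers held no called gene. Of the 14, 7 had both BDL libraries above and 3 both below (50% and 21.4%), with a median of 0.73 (0.338 to 1.405). Their sum was 2160 and 2434 CPM in BDL libraries, against 2573 and 9818 CPM in uninjured libraries. The pericyte gene Rgs5 held most of that sum, at 1618 and 1794 CPM in BDL libraries, against 2212 and 9047 CPM in uninjured libraries.

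Chains of collagens I and III had higher means after BDL, but no fibrillar collagen passed the test. Col1a1, the alpha-1 chain of collagen I, stood at 989 and 1835 CPM in BDL libraries, against 187 and 345 CPM in uninjured libraries, a log2 fold change of 2.40 (SE 0.43, adjusted p = 0.0932). Col1a2, its partner chain, stood at 1097 and 1648 CPM in BDL libraries, against 427 and 636 CPM in uninjured libraries (1.37, adjusted p = 0.190). Col3a1 stood at 1993 and 4131 CPM in BDL libraries, against 826 and 1380 CPM in uninjured libraries (1.43, adjusted p = 0.258). In each of these 3 the groups did not overlap, and neither did they for Col5a2, a chain of collagen V, at 299 and 442 CPM in BDL libraries, against 49.2 and 85.2 CPM in uninjured libraries (2.47, adjusted p = 0.0992). Collagen VI did not share it: Col6a1 stood at 491 and 555 CPM in BDL libraries, against 420 and 597 CPM in uninjured libraries. The member of highest mean CPM over the 4 libraries, the fibril-associated Col14a1, stood at 2119 and 2392 CPM in BDL libraries, against 2285 and 3116 CPM in uninjured libraries (-0.25, adjusted p = 0.871), and the collagen V chain Col5a1 at 1160 and 1680 CPM in BDL libraries, against 1198 and 607 CPM in uninjured libraries, with overlap. Of the 14 collagens and partners, 5 had both BDL libraries above (35.7%, near the 27.4% of all tested genes) and none had both below. Their median was 0.63, with a range of 0.27 to 1.01 and the lowest value without uninjured replicate 2.

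Basement membrane genes showed the highest share of the matrix lists, with 12 of 16 above (75%) and 1 below, a median of 1.07 (0.68 to 1.32) and no called gene. Col4a1, a chain of the collagen IV network, stood at 1343 and 1888 CPM in BDL libraries, against 663 and 744 CPM in uninjured libraries (1.18, adjusted p = 0.180). The perlecan gene Hspg2 stood at 325 and 471 CPM in BDL libraries, against 116 and 43.4 CPM in uninjured libraries (2.44, adjusted p = 0.107). Sparc, a collagen-binding glycoprotein, stood at 5233 and 6064 CPM in BDL libraries, against 2845 and 2942 CPM in uninjured libraries (0.96, adjusted p = 0.329). The laminin chain Lamb1 stood at 689 and 808 CPM in BDL libraries, against 585 and 745 CPM in uninjured libraries (0.18, adjusted p = 0.976). Endothelial cells also make collagen IV, laminins and perlecan, and endothelial markers were higher in BDL libraries, as given further on; their part in these values was not tested.

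The 28 proteoglycans and glycoproteins went both ways, with 13 above (46.4%), 8 below (28.6%) and a median of 0.51 (0.21 to 0.55). Called were versican (Vcan), a large hyaluronan-binding proteoglycan, and Spon1, a secreted adhesion protein. Vcan stood at 18.4 and 48.2 CPM in BDL libraries, against 0.0612 and 0.0521 CPM in uninjured libraries, which held 2 reads between them. It rose by 4.87 (SE 0.62, adjusted p = 0.0252), and its ratio of depth-scaled reads was 543, with a counting interval of 150 to 4489 (95%, exact). Spon1 stood at 96.2 and 76.5 CPM in BDL libraries, against 4.28 and 1.62 CPM in uninjured libraries, and rose by 4.55 (SE 0.61, adjusted p = 0.0305). Decorin (Dcn), of the highest mean CPM on the list, stood at 28872 and 30883 CPM in BDL libraries, against 31069 and 40919.8 CPM in uninjured libraries. Among those below was Ecm1, a secreted protein that keeps latent TGF-beta inactive in mouse liver, at 13796 and 10640 CPM in BDL libraries, against 30228 and 41517 CPM in uninjured libraries (-1.55, SE 0.41, adjusted p = 0.190). The fibulin gene Efemp1 stood at 438 and 489 CPM in BDL libraries, against 1205 and 1733 CPM in uninjured libraries (-1.64, adjusted p = 0.127).

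Loxl2 was the called gene of the 27 collagen processing and crosslinking genes, of which 14 were above (51.9%, against 27.4% of all genes) and 4 below (14.8%, against 12.2%). Their median was 0.33, and it ran from 0.11 to 0.66 over the alternatives, lowest without uninjured replicate 1 and highest without uninjured replicate 2. The procollagen chaperone Serpinh1 stood at 373 and 352 CPM in BDL libraries, against 575 and 1593 CPM in uninjured libraries (-1.40, adjusted p = 0.258), and it was called lower, by 2.13 on the log2 scale, when uninjured replicate 1 was left out. The members of highest mean CPM were not called. The disulphide isomerase Pdia3 stood at 1773 and 939.9 CPM in BDL libraries, against 1666 and 2302 CPM in uninjured libraries (-0.60, adjusted p = 0.739) and the procollagen C-proteinase enhancer Pcolce at 1035 and 892 CPM in BDL libraries, against 369 and 889.8 CPM in uninjured libraries (0.74, adjusted p = 0.543). The prolyl hydroxylase subunit P4hb had a log2 fold change of 0.22. Of 25 tested metalloproteinases, plasminogen activators and inhibitors, Timp1 and Plat were called, 10 were above (40%) and 2 below (8%), with a median of 0.57 (0.26 to 1.23). The collagenase gene Mmp2 stood at 242 and 146 CPM in BDL libraries, against 91.2 and 233 CPM in uninjured libraries, with overlap. Mmp9 and Mmp13 were at or near 0, with at most 1.95 CPM in any of the 4 libraries. Outside the lists, the secreted protease Adamts15 rose by 4.17 (SE 0.56, adjusted p = 0.0330), at 141 and 85.8 CPM in BDL libraries, against 2.94 and 8.60 CPM in uninjured libraries. Dermatopontin (Dpt), a small collagen-binding matrix protein and a fibroblast marker, rose by 3.42 (SE 0.43, adjusted p = 0.0252), at 22.9 and 21.7 CPM in BDL libraries, against 0.734 and 1.72 CPM in uninjured libraries.

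**Figure D3:**
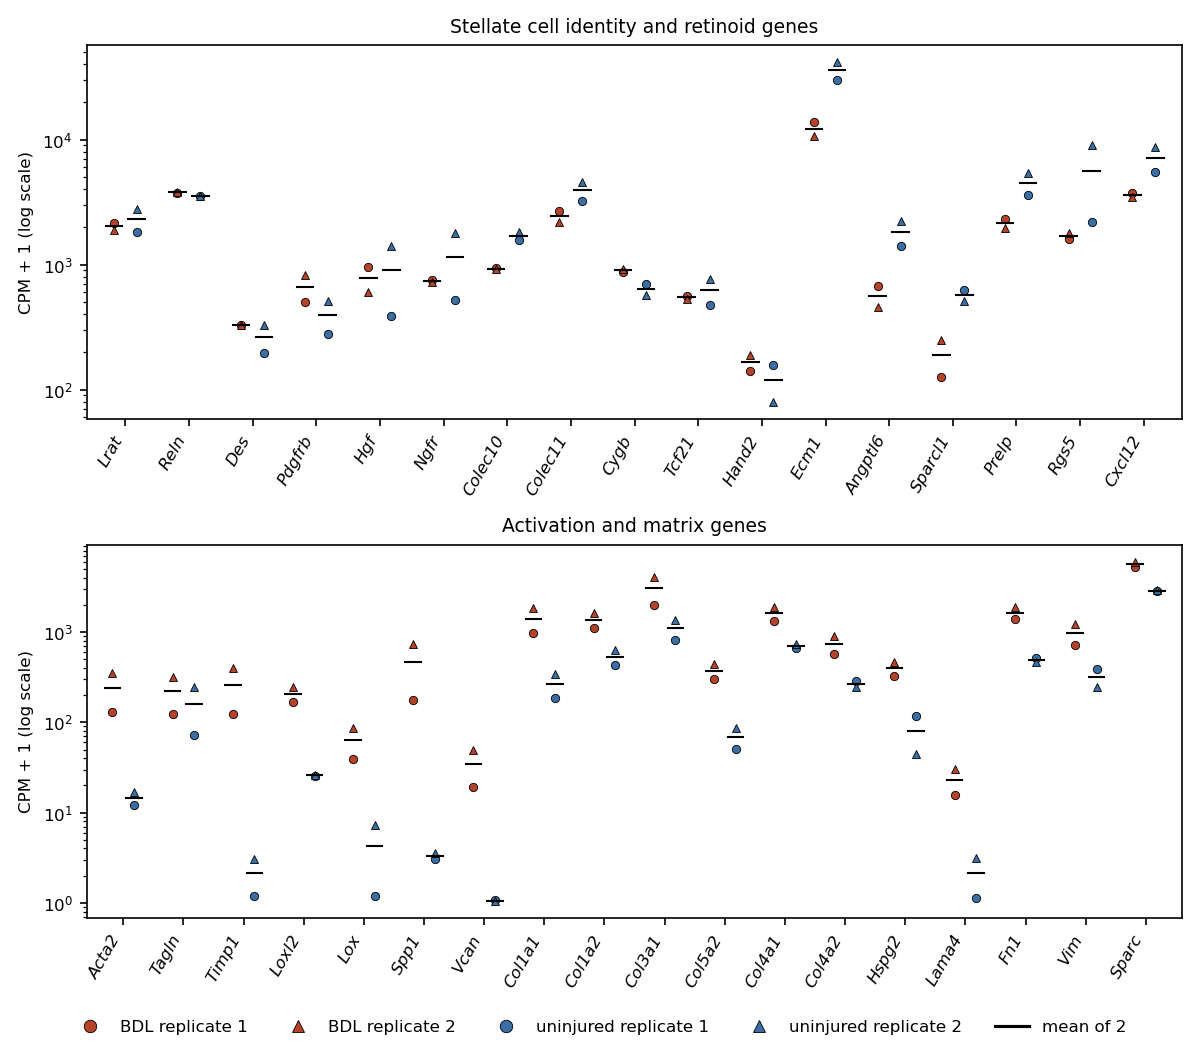
CPM + 1 on a log axis for stellate cell identity and retinoid genes (top) and activation and matrix genes (bottom), with BDL libraries in red to the left of uninjured libraries in blue, circles for replicate 1, triangles for replicate 2 and a bar for the mean of 2. Lrat and Reln lie at similar levels in both groups, Ecm1 and Sparcl1 lie lower after BDL, and Acta2, Timp1 and Loxl2 lie higher.

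Plat and the urokinase receptor Plaur belong to the plasminogen system, which turns plasminogen into the protease plasmin. Plat, tissue plasminogen activator (chr8:22757727-22782844), stood at 85.9 and 167 CPM in BDL libraries, against 0.0612 and 0.104 CPM in uninjured libraries, which held 3 reads between them. It rose by 6.80 (SE 0.45, adjusted p = 0.00148), and its ratio of depth-scaled reads was 1409, with a counting interval of 482 to 6837. Plaur stood at 36.1 and 39.3 CPM in BDL libraries, against 0.122 and 0.0521 CPM in uninjured libraries, and rose by 5.15 (SE 0.50, adjusted p = 0.00917), with a ratio of 443 and an interval of 151 to 2152. For genes with so few uninjured reads the log2 fold change depends on the added 1 CPM and understates the ratio.

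No gene of the quiescent state was called lower, and neither was any other of the 16446 tested genes. Of the 28 stellate cell identity genes, 12 had both BDL libraries below both uninjured ones (42.9%, against 12.2% of all tested genes). For 5 of the 28 both lay above (17.9%, against 27.4%). The median log2 fold change of the list was -0.39, beside 0.19 for all genes. Over the alternatives it ran from -0.62 to -0.16, with its weakest value without uninjured replicate 2. Summed over the list, the level was 45115 and 38974 CPM in BDL libraries, against 62317 and 95788 CPM in uninjured libraries, and Ecm1 made up much of it. Angptl6, a secreted angiopoietin-like factor, stood at 672 and 460 CPM in BDL libraries, against 1421 and 2240 CPM in uninjured libraries (-1.68, adjusted p = 0.299). The matricellular gene Sparcl1 stood at 125 and 250.4 CPM in BDL libraries, against 631 and 509 CPM in uninjured libraries (-1.67, adjusted p = 0.170). Colec10, a liver collectin, stood at 941 and 917 CPM in BDL libraries, against 1584 and 1826 CPM in uninjured libraries (-0.87, adjusted p = 0.477). Steap4, a metalloreductase, stood at 5027 and 3687 CPM in BDL libraries, against 1559 and 5032 CPM in uninjured libraries, and Rgs5, a regulator of G protein signalling in pericytes, at 1618 and 1794 CPM in BDL libraries, against 2212 and 9047 CPM in uninjured libraries (-1.39, adjusted p = 0.424). Steap4 overlapped between the groups, and for Rgs5 both BDL libraries lay below both uninjured ones. In bulk libraries such as these, fewer cells of a type and less RNA per cell cannot be told apart.

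Other identity genes stayed at similar levels or were higher. Lrat had a log2 fold change of -0.15 (SE 0.61, adjusted p = 0.9996) and Reln one of 0.09 (SE 0.43), a sign that turned to -0.02 with TMM scaling. The hepatocyte growth factor gene Hgf stood at 955 and 606 CPM in BDL libraries, against 387 and 1418 CPM in uninjured libraries, with overlap. Desmin (Des) stood at 331 and 331 CPM in BDL libraries, against 196 and 329.7 CPM in uninjured libraries (0.38, adjusted p = 0.772). The PDGF receptor Pdgfrb, through which stellate cells receive their main mitogen, stood at 504 and 831 CPM in BDL libraries, against 278 and 511 CPM in uninjured libraries (0.78, adjusted p = 0.610). Hand2, a transcription factor of quiescent stellate cells, stood at 141 and 189 CPM in BDL libraries, against 158 and 79.1 CPM in uninjured libraries.

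Genes of vitamin A handling showed no common direction. The 21 tested retinoid genes had 7 above (33.3%), 5 below (23.8%) and a median of 0.00 (-0.07 to 0.08). Rdh10, which oxidises retinol, stood at 96.4 and 168 CPM in BDL libraries, against 14.7 and 9.49 CPM in uninjured libraries (3.32, adjusted p = 0.144). Cyp26b1, which breaks down retinoic acid, stood at 131 and 72.8 CPM in BDL libraries, against 15.5 and 1.15 CPM in uninjured libraries (4.05, adjusted p = 0.183). Dhrs3, which reduces retinal to retinol, stood at 438 and 254 CPM in BDL libraries, against 459 and 721 CPM in uninjured libraries (-0.79, adjusted p = 0.512). Of 18 tested lipid droplet genes 9 were above and 2 below (50% and 11.1%; median 0.43, 0.22 to 1.11). The fatty acid-binding protein Fabp4, found in fat cells, macrophages and capillary endothelium, rose by 4.46 (SE 0.63, adjusted p = 0.0414), at 111 and 68.4 CPM in BDL libraries, against 3.24 and 2.82 CPM in uninjured libraries. The droplet coat protein Plin2 stood at 305 and 221 CPM in BDL libraries, against 465 and 350.0 CPM in uninjured libraries (-0.63, adjusted p = 0.672).

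Among signals and states, 1 gene was called. Fosl2, a subunit of the AP-1 transcription factor, stood at 124 and 99.4 CPM in BDL libraries, against 16.6 and 11.0 CPM in uninjured libraries, and rose by 2.95 (SE 0.36, adjusted p = 0.0236). It was the called gene of 26 tested immediate early and heat shock genes, of which 11 were above and 2 below (42.3% and 7.69%; median 0.65, 0.25 to 1.14). Junb, another AP-1 subunit, stood at 1288 and 587 CPM in BDL libraries, against 520.4 and 492 CPM in uninjured libraries (0.78, adjusted p = 0.590), and the phosphatase gene Dusp1 at 1042 and 388 CPM in BDL libraries, against 1154 and 706 CPM in uninjured libraries (-0.50, adjusted p = 0.764). The AP-1 subunits Fos and Jun overlapped between the groups: Jun stood at 1182 and 358 CPM in BDL libraries, against 360.5 and 933 CPM in uninjured libraries.

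Common AP-1 sites fall within the letters TGANTCA, where N is any base, a pattern that reads the same on both strands. Promoters of the called genes were searched for this pattern because Fosl2 rose. RefSeq promoters (build GRCm38.p6, 250 bases before to 50 after the start of each gene) were on hand for 23 of the 37 called genes, with 27 promoters. Of these 27 promoters 3 held the letters, each of another gene, against 7.81% of 32851 promoters of all genes. The 3 are shown in lower case with the match in capitals: Plaur (chr7:24462233-24462532, plus strand), Mt2 (chr8:94172368-94172667, plus strand) and Gpnmb (chr6:49036268-49036567, plus strand). A match is a description and not a binding site.
Plaur: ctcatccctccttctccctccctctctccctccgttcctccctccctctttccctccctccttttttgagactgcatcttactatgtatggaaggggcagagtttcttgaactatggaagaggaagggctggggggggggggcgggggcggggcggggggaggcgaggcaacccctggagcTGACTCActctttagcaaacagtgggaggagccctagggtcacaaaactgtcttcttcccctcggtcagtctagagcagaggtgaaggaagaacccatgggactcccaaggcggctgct
Mt2: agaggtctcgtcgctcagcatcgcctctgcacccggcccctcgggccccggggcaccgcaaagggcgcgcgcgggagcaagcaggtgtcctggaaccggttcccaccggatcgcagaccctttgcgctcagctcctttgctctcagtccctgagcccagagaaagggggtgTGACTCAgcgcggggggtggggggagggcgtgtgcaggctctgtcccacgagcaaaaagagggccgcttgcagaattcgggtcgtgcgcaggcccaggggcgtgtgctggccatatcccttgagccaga
Gpnmb: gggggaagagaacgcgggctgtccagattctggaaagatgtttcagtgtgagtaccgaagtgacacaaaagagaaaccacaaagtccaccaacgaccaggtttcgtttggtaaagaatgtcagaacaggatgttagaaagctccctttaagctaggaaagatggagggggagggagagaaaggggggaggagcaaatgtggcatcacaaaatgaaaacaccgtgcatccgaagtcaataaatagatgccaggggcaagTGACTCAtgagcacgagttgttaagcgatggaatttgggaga
All 3 hold TGACTCA, at 69 and 79 bases before the start for Plaur and Mt2, and after it for Gpnmb. Mt2, a metallothionein that binds zinc and is induced in acute phase responses, stood at 843 and 552 CPM in BDL libraries, against 53.2 and 16.2 CPM in uninjured libraries, and rose by 4.49 (SE 0.57, adjusted p = 0.0252). Gpnmb, a transmembrane glycoprotein of macrophages and other cells, stood at 28.8 and 95.8 CPM in BDL libraries, against 0 and 0.104 CPM in uninjured libraries, and rose by 5.68 (SE 0.82, adjusted p = 0.0439).

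Proliferation genes were mostly higher in BDL libraries at low levels. Of 32 cell cycle genes 21 were above (65.6%) and 4 below (12.5%), with a median of 1.84 (0.97 to 2.19) and no called gene. Mki67, a marker of cycling cells, stood at 27.5 and 41.5 CPM in BDL libraries, against 10.7 and 4.01 CPM in uninjured libraries (2.18, adjusted p = 0.253). The mitotic kinase gene Cdk1 stood at 47.6 and 47.2 CPM in BDL libraries, against 7.58 and 7.09 CPM in uninjured libraries (2.54, adjusted p = 0.136). The G1 cyclin Ccnd2, of the highest mean CPM on the list, stood at 527 and 516 CPM in BDL libraries, against 529 and 728 CPM in uninjured libraries (-0.25, adjusted p = 0.862), and the cell cycle inhibitor Cdkn1a at 166 and 72.0 CPM in BDL libraries, against 72.8 and 0.365 CPM in uninjured libraries (3.46, adjusted p = 0.400). The lowest median was without uninjured replicate 2. Which cells the transcripts came from was not tested.

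Interferon-stimulated genes ran the other way. Of 23 tested, 15 had both BDL libraries below both uninjured ones (65.2%, against 12.2% of all tested genes), 1 both above (4.35%, against 27.4%), and none was called. The median was -0.70, with a range of -0.96 to -0.46 over the alternatives. Irf7, the transcription factor that amplifies type I interferon, stood at 59.8 and 56.2 CPM in BDL libraries, against 472 and 86.2 CPM in uninjured libraries (-1.78, adjusted p = 0.415). Rtp4, a chaperone of membrane receptors, stood at 299 and 259 CPM in BDL libraries, against 535 and 428 CPM in uninjured libraries (-0.78, adjusted p = 0.381). The antiviral gene Bst2 stood at 297 and 208 CPM in BDL libraries, against 288 and 153 CPM in uninjured libraries (0.24, adjusted p = 0.883), with overlap, and Ifi27 at 150.1 and 191 CPM in BDL libraries, against 224 and 338 CPM in uninjured libraries (-0.70, adjusted p = 0.493). Uninjured replicate 1, the library with macrophage transcripts, was the higher of its pair for Irf7, Rtp4 and Bst2, and the lower for Ifi27. Without uninjured replicate 1 the median of the list was -0.46. Against uninjured replicate 2 alone, 15 of the 23 had both BDL libraries below (65.2%, against 26.5% of all tested genes). On the same comparison 5 had both above (21.7%, against 46.0%). The part of macrophage RNA in these values was not tested.

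Signalling lists held no called gene. Of 26 TGF-beta genes 8 were above (30.8%, near the 27.4% of all genes) and 2 below (7.69%). Their median was 0.53, with a range of 0.15 to 0.71 and the lowest value without uninjured replicate 2. The inhibitory pseudoreceptor Bambi stood at 189 and 218 CPM in BDL libraries, against 472 and 457 CPM in uninjured libraries (-1.19, adjusted p = 0.264). Members of high CPM included Tgfbi, a secreted target of TGF-beta, and Eng, a TGF-beta co-receptor, with log2 fold changes of 0.51 and -0.19, neither called. Of 25 PDGF, HGF, VEGF and FGF genes 10 were above (40%) and 3 below (12%, near the 12.2% of all genes). Their median was 0.42, and ran from 0.16 without BDL replicate 2 to 0.80 without BDL replicate 1. The receptor gene Fgfr2 stood at 835 and 1115 CPM in BDL libraries, against 1237 and 2059 CPM in uninjured libraries (-0.73, adjusted p = 0.630). Of 16 Hedgehog genes 3 were above and 3 below (18.8% and 18.8%; median -0.03, -0.10 to 0.06), and the Hedgehog inhibitor Hhip stood at 279 and 243 CPM in BDL libraries, against 398 and 407 CPM in uninjured libraries. The Hedgehog co-receptor Gas1 stood at 18.1 and 56.2 CPM in BDL libraries, against 86.8 and 153 CPM in uninjured libraries (-1.82, adjusted p = 0.264), and the receptor Ptch1, itself a Hedgehog target, at 28.0 and 81.0 CPM in BDL libraries, against 79.1 and 56.5 CPM in uninjured libraries. Of 25 tested chemokines and cytokines 8 were above (32%, near the 27.4% of all genes) and 6 below (24%). Their median of 0.58 was not stable: it was -0.20 without uninjured replicate 2, and 0.00 without either BDL library and with edgeR or DESeq2. The monocyte attractant Ccl2 stood at 508 and 1009 CPM in BDL libraries, against 218 and 431 CPM in uninjured libraries (1.22, adjusted p = 0.773). Cxcl12, the chemokine of highest mean CPM, stood at 3735 and 3453 CPM in BDL libraries, against 5538 and 8677 CPM in uninjured libraries (-0.95, adjusted p = 0.441). Of 20 ER stress genes 3 were above and 2 below (15% and 10%; median -0.02, -0.30 to 0.26). Among the ER stress genes, the chaperone Hspa5 stood at 1568 and 790.0 CPM in BDL libraries, against 845 and 2351 CPM in uninjured libraries, with overlap. Csf1, the macrophage growth factor on the cytokine list, stood at 211 and 303 CPM in BDL libraries, against 311 and 407 CPM in uninjured libraries (-0.49, adjusted p = 0.702).

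**Figure D4:**
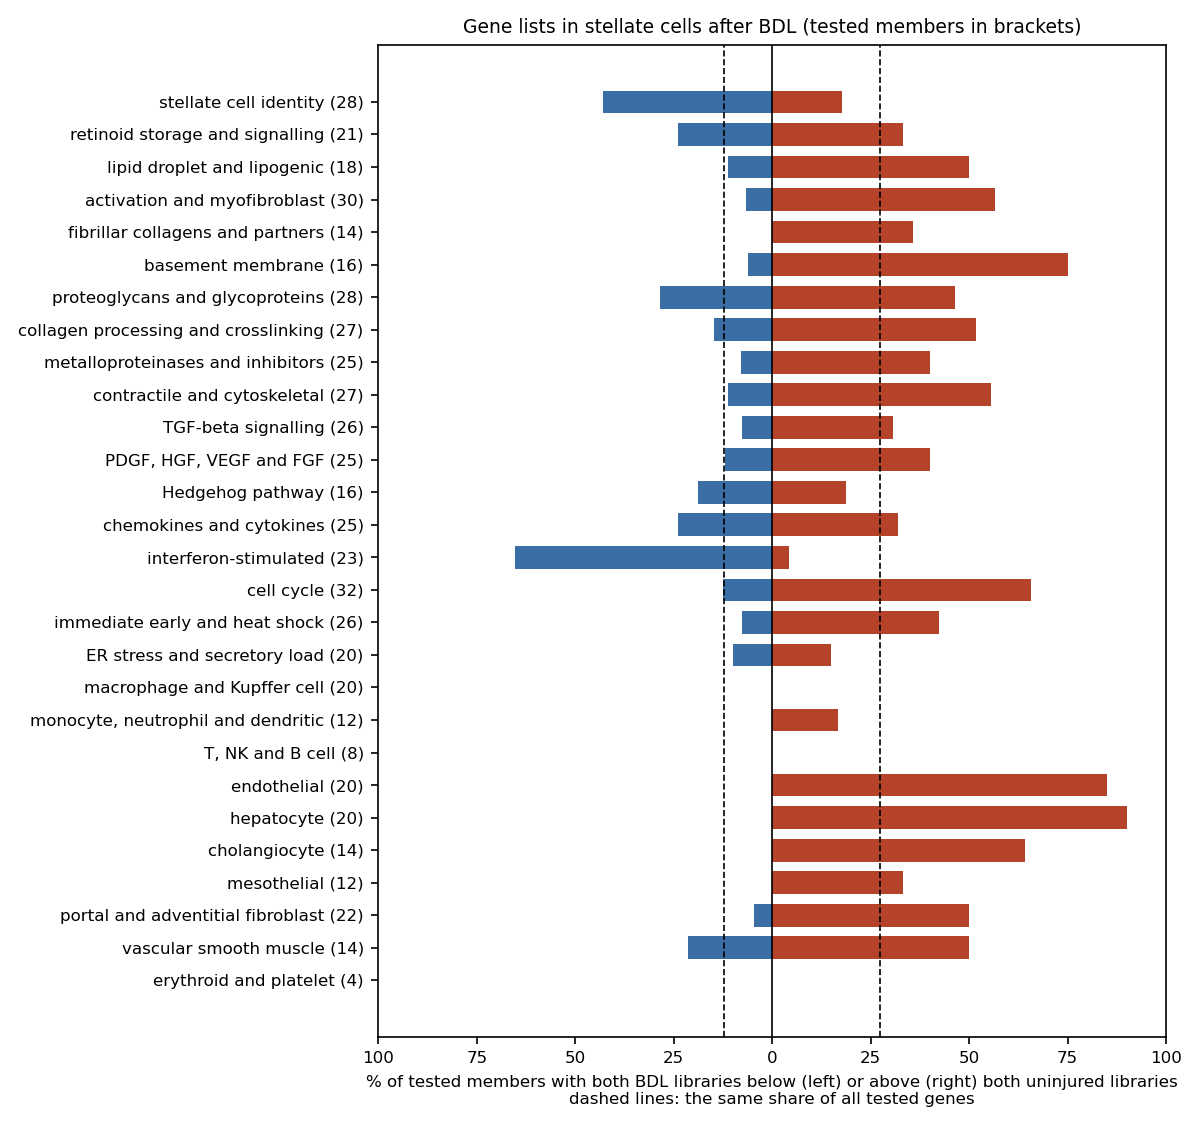
Percentage of tested members of each gene list with both BDL libraries above both uninjured libraries (red, to the right) or below both (blue, to the left), with the number of tested members in brackets and dashed lines at 27.4% and 12.2%, the shares of all tested genes. Hepatocyte, endothelial, basement membrane and cell cycle lists reach furthest to the right, and the interferon-stimulated and stellate cell identity lists reach furthest to the left.

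Transcripts known from other cell types were among the called genes. Some are best known from the liver's acute phase response or from hepatocytes, and these too were put together after they had been called. Haptoglobin (Hp), a plasma protein that binds free hemoglobin, stood at 289 and 381 CPM in BDL libraries, against 1.10 and 0.469 CPM in uninjured libraries, and rose by 7.57 (SE 0.78, adjusted p = 0.0111). Serpina3n, a secreted protease inhibitor, stood at 177 and 210.2 CPM in BDL libraries, against 0.122 and 0.730 CPM in uninjured libraries, and rose by 7.12 (SE 0.55, adjusted p = 0.00320). Mup20, a major urinary protein made by hepatocytes, rose by 6.86 (SE 0.70, adjusted p = 0.0111), at 101 and 183 CPM in BDL libraries, against 0.0612 and 0.313 CPM in uninjured libraries; the Mup genes are near-identical copies, so reads may be split among them. The plasma protein gene Ambp rose by 6.03 (SE 0.76, adjusted p = 0.0252), and complement C3 by 4.74 (SE 0.61, adjusted p = 0.0257), at 116 and 254 CPM in BDL libraries, against 5.20 and 5.79 CPM in uninjured libraries.

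Hepatocyte markers were higher in the same libraries. Of the 20 hepatocyte markers 18 (90%) had both BDL libraries above both uninjured ones, against 27.4% of all tested genes. None of the 20 was called, where 0.225% of all tested genes were called higher. The median log2 fold change of the list was 3.41 (2.71 to 4.77). Albumin (Alb) stood at 651 and 450.3 CPM in BDL libraries, against 62.0 and 8.13 CPM in uninjured libraries (4.50, adjusted p = 0.180). The apolipoprotein gene Apoa1 stood at 354 and 387 CPM in BDL libraries, against 9.91 and 13.4 CPM in uninjured libraries (4.89, adjusted p = 0.0889), and the plasma protein gene Ahsg at 220.3 and 304 CPM in BDL libraries, against 23.3 and 2.66 CPM in uninjured libraries (4.78, adjusted p = 0.136). Summed over the 20, the level was 2389 and 2482 CPM in BDL libraries, against 344 and 119 CPM in uninjured libraries. The part of hepatocyte RNA in the rise of Hp, Serpina3n, Mup20, Ambp and C3 was not tested.

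Several called genes are best known from endothelium or from vessels, among other cells. Of those named next only Robo4 is on the endothelial list, and the rest were put together after they had been called. Cd93, a receptor of endothelial and myeloid cells, stood at 109 and 100.5 CPM in BDL libraries, against 0.0612 and 0.209 CPM in uninjured libraries, and rose by 6.54 (SE 0.61, adjusted p = 0.00848). The sialomucin Podxl stood at 104 and 75.0 CPM in BDL libraries, against 0.0612 and 0.0521 CPM in uninjured libraries, and rose by 6.40 (SE 0.59, adjusted p = 0.00848). Robo4, a guidance receptor of endothelium, rose by 5.05 (SE 0.74, adjusted p = 0.0458), at 66.3 and 35.3 CPM in BDL libraries, against 1.10 and 0.0521 CPM in uninjured libraries. The junction protein Jam2 rose by 6.54 (SE 0.92, adjusted p = 0.0406), and the semaphorin and VEGF co-receptor Nrp2 by 5.11 (SE 0.59, adjusted p = 0.0223). Cav1, the caveolin that shapes caveolae, rose by 3.81 (SE 0.54, adjusted p = 0.0406). Cavin2, a coat protein of the same membrane pits, rose by 2.63 (SE 0.34, adjusted p = 0.0257), at 90.8 and 69.3 CPM in BDL libraries, against 11.2 and 12.9 CPM in uninjured libraries. Spns2, a transporter of sphingosine 1-phosphate, had no read in uninjured libraries and was at least 216-fold higher after BDL (3 reads over the group as the floor), at 18.2 and 18.3 CPM in BDL libraries (adjusted p = 0.0450). Plxna2, a semaphorin receptor, likewise had no uninjured read and was at least 270-fold higher on the same floor (adjusted p = 0.0442).

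Most markers of the endothelial list were also higher, with 1 past the test. Of the 20, 17 (85%) had both BDL libraries above both uninjured ones, against 27.4% of all tested genes. Robo4 was called, where 0.225% of all tested genes were called higher. The median of the list was 2.90 (2.15 to 4.10). Kdr, the main VEGF receptor, stood at 230.0 and 258 CPM in BDL libraries, against 45.4 and 20.2 CPM in uninjured libraries (2.96, adjusted p = 0.139). The lectin Clec4g and the nuclease Dnase1l3, both of sinusoidal endothelium, had log2 fold changes of 2.84 and 2.39, neither called. The sinusoidal marker Lyve1 stood at 95.6 and 37.0 CPM in BDL libraries, against 0.673 and 0.0521 CPM in uninjured libraries (5.51, adjusted p = 0.0688). The sum of the list overlapped, at 15724 and 10057 CPM in BDL libraries, against 7555 and 12641 CPM in uninjured libraries, because Plvap, a protein of endothelial diaphragms, held most of it at 10379 and 6196 CPM in BDL libraries, against 5929 and 12009 CPM in uninjured libraries. The part of endothelial cells in the called genes, and in the matrix genes above, was not tested.

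Keratins were called, while the bile duct markers Krt19 and Epcam were near 0. Krt18 stood at 29.2 and 50.7 CPM in BDL libraries, against 0.550 and 0.365 CPM in uninjured libraries, and rose by 4.76 (SE 0.45, adjusted p = 0.00848). Its partner Krt8 stood at 12.3 and 20.6 CPM in BDL libraries, against 0.367 and 0.574 CPM in uninjured libraries, and rose by 3.53 (SE 0.52, adjusted p = 0.0467). Both keratins are made by hepatocytes as well as by cholangiocytes. Krt19, the keratin of bile duct cells, stood at 0.934 and 2.29 CPM in BDL libraries, against 1.04 and 0.782 CPM in uninjured libraries, and Epcam at 0.467 and 1.10 CPM in BDL libraries, against 0.0612 and 0.0521 CPM in uninjured libraries. Of the 14 cholangiocyte markers, 9 had both BDL libraries above both uninjured ones (64.3%, against 27.4% of all tested genes) and none had both below. Their median log2 fold change was 0.60 (0.21 to 2.95). Krt8, Krt18 and Spp1 were the called genes of the 14 cholangiocyte markers, whose sum was 225 and 831 CPM in BDL libraries, against 8.07 and 4.90 CPM in uninjured libraries. Spp1 made up most of it in both BDL libraries.

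Portal fibroblast markers were in part higher after BDL, while mesothelial and blood cell markers held no called gene. Dpt was the called gene of 22 portal and adventitial fibroblast markers, of which 11 were above (50%) and 1 below, with a median of 0.63 (0.35 to 1.35). Thy1, the usual surface marker of portal fibroblasts, stood at 4.73 and 4.67 CPM in BDL libraries, against 0.122 and 0.0521 CPM in uninjured libraries (2.39, adjusted p = 0.211). The members of highest mean CPM were the peroxidase Gpx3, at 534 and 227 CPM in BDL libraries, against 110.2 and 24.4 CPM in uninjured libraries (2.72, adjusted p = 0.173), the receptor Pdgfra, at 446 and 464 CPM in BDL libraries, against 265 and 503 CPM in uninjured libraries (0.32, adjusted p = 0.815), and Smoc2, at 219 and 148 CPM in BDL libraries, against 246 and 256 CPM in uninjured libraries (-0.48, adjusted p = 0.632). The 12 mesothelial markers held no called gene and Msln reached at most 1.02 CPM in any stellate library. No gene was called among 12 tested monocyte, neutrophil and dendritic, 8 tested T, NK and B cell and 4 tested erythroid and platelet markers. The macrophage list, whose median was near 0, had a median of 3.74 without uninjured replicate 1 and -3.50 without uninjured replicate 2, so its direction is set by which uninjured library is kept.

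**Figure D5:**
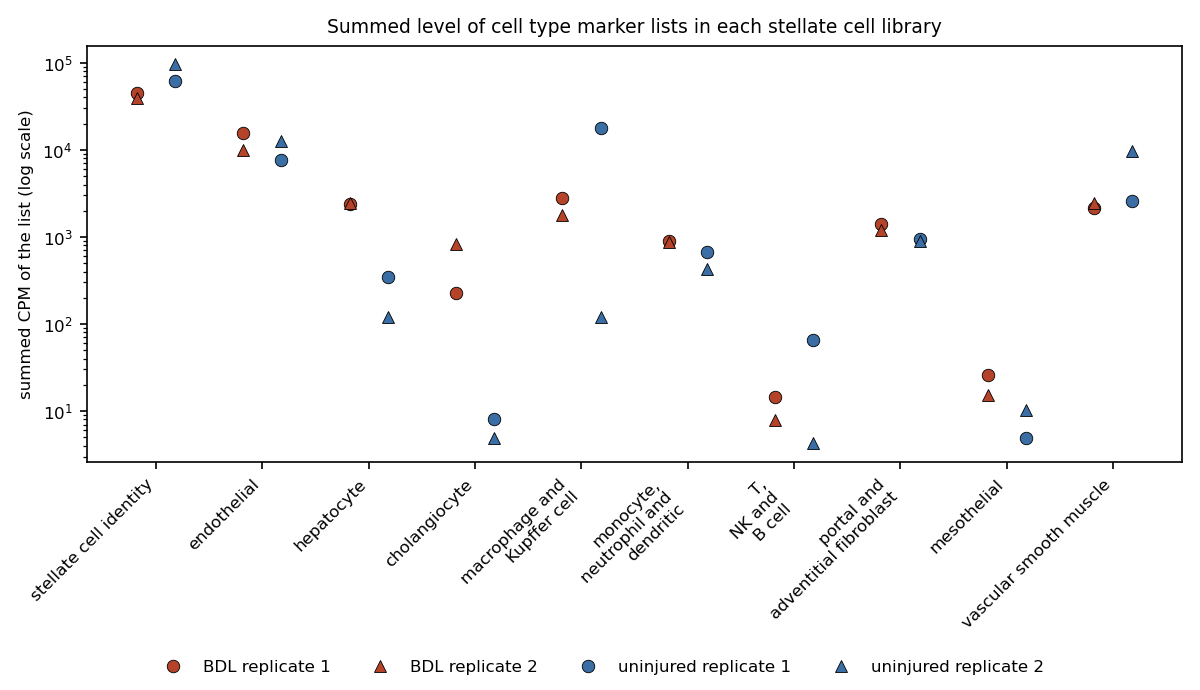
Summed CPM of marker lists on a log axis in each stellate cell library, with BDL libraries in red to the left of uninjured libraries in blue, circles for replicate 1 and triangles for replicate 2. Hepatocyte and cholangiocyte sums are higher in both BDL libraries, and the macrophage sum of uninjured replicate 1 lies far above that of uninjured replicate 2, with the BDL libraries between.

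The remaining called genes belong to none of the lists. Slco2a1, a prostaglandin transporter (chr9:102988712-103096002), stood at 142 and 107 CPM in BDL libraries, against 0 and 0.156 CPM in uninjured libraries. It rose by 6.85 (SE 0.41, adjusted p = 0.00121), and its ratio of depth-scaled reads was 1513, with a counting interval of 517 to 7342. Cemip2, a cell surface hyaluronidase, rose by 4.71 (SE 0.55, adjusted p = 0.0236), at 146 and 94.4 CPM in BDL libraries, against 1.90 and 6.05 CPM in uninjured libraries. Tmem88, Stap2, Efna1 and Cxadr rose by 5.27, 4.64, 4.51 and 3.34, with adjusted p of 0.0214, 0.0252, 0.0252 and 0.0467.

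The response of stellate cells was set beside that of Gli1+ cells by testing the difference of the log2 fold changes in the same fit. It was called for 2 genes, 0.0122% of those tested. Plat stood at 195 and 138 CPM in Gli1+ BDL libraries, against 238 and 177 CPM in Gli1+ uninjured libraries, so that its response was 7.12 higher in stellate cells (SE 0.64, adjusted p = 0.0175). Slco2a1 stood at 122 and 171 CPM in Gli1+ BDL libraries, against 121 and 119.9 CPM in Gli1+ uninjured libraries, a difference of 6.59 (SE 0.58, adjusted p = 0.0175). Neither difference was called when any of the 4 Gli1+ libraries or either stellate BDL library was left out, nor with a replicate block. For both genes the BDL stellate libraries lay near the level of all 4 Gli1+ libraries, and the uninjured stellate libraries lay near 0. Most endothelial and hepatocyte markers were also higher in the BDL stellate libraries, and which cells held Plat and Slco2a1 was not tested. Acta2 stood at 761 and 840.1 CPM in Gli1+ BDL libraries, against 507 and 777 CPM in Gli1+ uninjured libraries, and its response was not called as differing (3.53, adjusted p = 0.312).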

How the data were processed

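RNA of 8 mouse liver cell libraries in 4 groups of 2 was measured, and the 4 stellate libraries carry the comparison described. The deposited values are CPM, reads per gene that the authors scaled to a fixed total per library, with 1 column per library. Per the submitters' processing notes, mm10 was the build and the tools included FastQC, STAR 2.5.2b, featureCounts and DESeq2, with no role or order. No source used here gives the annotation release, the strand setting or the handling of multiply matching reads, so close copies and antisense pairs are uncertain. Every value was a whole multiple of 1 read within 0.1 read (100% of values), so reads were recovered, and the depths in the report are sums of these. Of 30395 gene identifiers, 30214 matched GENCODE vM21 for symbols and GRCm38 coordinates.

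The main test was limma-trend on log2(CPM + 1), run in limma 3.58.1 under R 4.3.3, with 4 group means over all 8 libraries and 4 residual degrees of freedom, on genes of at least 1 CPM in at least 2 libraries, with Benjamini-Hochberg adjustment at 0.05. A pseudocount of 1 CPM understates changes of low genes. Counts of 0 allow up to 3 reads, and ratios against 1 to 3 reads have exact 95% intervals. Both cover counting error only, since PCR copies are not independent molecules. The fit was tested on simulated data, with changed genes drawn from those with a mean of at least 10 CPM over the 8 libraries. Of 100 genes changed 4-fold it recovered 15, and of 100 changed 16-fold it recovered 54. Among its 79 calls, 10 were genes left unchanged. A gene that was not called may therefore still have changed, and some called genes may be false calls. No changed gene of the simulation started near 0, whereas 22 of the 37 called genes had an uninjured mean under 1 CPM. The recovery of such genes was not tested. The alternatives were a pseudocount of 0.25 or 4 CPM, no filter, a filter of 10 CPM, TMM scaling, limma-voom, edgeR 4.0.16 and DESeq2 1.42.0 on the recovered reads, the stellate libraries alone, a replicate block and each library left out.

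Members and the 28 gene lists were chosen with earlier results of these data known. The rule for named genes took a fixed set (Acta2, Tagln, Col1a1, Col1a2, Col3a1, Timp1, Lrat, Reln, Des, Pdgfrb, Gli1 and a gene not reported here), the 10 called genes of largest fold change with at least 20 CPM, up to 4 called members per list and, for lists with fewer than 2, the 3 members of highest mean CPM, and the 10 genes of largest ratio between the uninjured libraries in each direction. Some of these members, chiefly of blood cell and mesothelial lists, are counted in the report without their values. Genes named outside the rule, such as Lox, Cdk1, Irf7, Kdr and Serpinh1, were chosen after their values were seen.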

Additional observations from a re-analysis of the deposited data

Results flagged for a closer look

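The BDL response of Plat, tissue plasminogen activator, differed between stellate and Gli1+ cells by 7.12 on the log2(CPM + 1) scale (stellate minus Gli1+, SE 0.64), and that of Slco2a1, a prostaglandin transporter, by 6.59 (SE 0.58), each with an adjusted p of 0.0175 from limma. They were singled out because the difference between the 2 cell populations itself passed the test. Neither was called with a replicate block or without any 1 of the 4 Gli1+ libraries or the 2 stellate BDL libraries. In both stellate BDL libraries each gene was higher than in both stellate uninjured libraries, while the Gli1+ groups lay close together. Which cells in the stellate libraries held these transcripts was not tested.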

How the results depend on the processing

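The count of genes called higher after BDL, 37 in the main fit, depended on the settings. It was 44 with a pseudocount of 0.25 CPM, 19 with 4 CPM, 6 with no filter, 56 with a filter of 10 CPM, 23 with TMM scaling, 62 with edgeR, 837 with DESeq2, and 0 with limma-voom and with the stellate libraries alone, by limma or edgeR (unadjusted p under 0.05 for 2098, 1936 and 1424 genes). Leaving out single libraries gave 0 to 206. Genes called lower numbered 0, except for 169 with DESeq2 and a range of 0 to 31 over single libraries left out. The difference of responses, called for 2 genes, was called for 11 with edgeR, 389 with DESeq2, and 0 with a pseudocount of 4 CPM, no filter or limma-voom, and for 0 to 30 with single libraries left out. Of the 37 genes, 27 were also called with edgeR, 23 with TMM scaling and all 37 with DESeq2, and none of the 37 changed sign in any fit. Over all genes, the middle log2 fold change was 0.195 as deposited, 0.112 with TMM scaling, 0.072 with edgeR and 0.020 with DESeq2. Why the counts differ was not tested.

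The labels do not say whether replicate numbers pair the samples. The correlation of replicate deviations between stellate BDL and uninjured libraries was 0.000743 over 16446 genes. That value cannot settle the matter, since the uninjured pair held large differences that the BDL pair did not. With a replicate block, 18 genes were called higher, 17 of them among the 37, and 0 for the difference of responses.

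Of 100 genes with a printed fold change, 9 changed sign, none of them called. Reln was -0.0236 with TMM scaling, -0.0237 with limma-voom, -0.0266 with edgeR, -0.0794 with DESeq2 and -0.0591 with edgeR on stellate libraries, and Lamb1 was -0.0071 with DESeq2. With single libraries left out, Bst2 ran from -0.2089 to 0.695, Dusp1 from -1.2158 to 0.2071, Eng from -0.4721 to 0.0861, Lrat from -0.4555 to 0.1482, P4hb from -0.1229 to 0.566, Pdgfra from -0.1446 to 0.7771 and Tagln from -0.3072 to 1.4519. With 2 libraries a group, changes of genes with few reads in uninjured cells are imprecise.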

Other observations

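No gene was called lower after BDL. Genes with an uninjured mean of at least 20 CPM and both BDL libraries below both uninjured ones were ranked by p. The lowest were Acot2, Ano1 and Abhd8, chosen after their values were seen. Acot2, a mitochondrial acyl-CoA thioesterase, stood at 6.83 and 6.46 CPM in BDL libraries, against 45.7 and 46.5 CPM in uninjured libraries (log2 fold change -2.62, SE 0.49, limma adjusted p = 0.0987). The calcium-activated chloride channel Ano1 stood at 67.9 and 68.5 CPM in BDL libraries, against 177 and 258 CPM in uninjured libraries (-1.64, SE 0.31, adjusted p = 0.0992).

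The genes called lower depended on which uninjured library was kept. Without uninjured replicate 1 they numbered 8 and included Serpinh1, the chaperone gene Dnajb1, Hspa1a, Ano1 and Ogn, a small leucine-rich proteoglycan. Without uninjured replicate 2 they numbered 31 and included Xist and the macrophage genes Adgre1, Csf1r, C1qa, C1qc, Cd5l and Vsig4.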
